A study of Homo sapiens with 12 samples.

Results

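The transcripts that SM-164 and zVAD added to, or removed from, the response of HT-29 cells to TNFα were followed by setting 3 libraries of cells given TNFα, SM-164 and zVAD together (TSZ) against 3 libraries of cells given TNFα alone. All genes with a mean of at least 10 normalized reads over both groups were taken, which gave 11745 of the 26485 genes listed, and 11727 of them had a read count in every library. Normalized reads are the reads of a library divided by its size factor, which scales libraries to a common depth. HT-29 is a cell line from a human colon adenocarcinoma. Both groups received TNFα at 10 ng/ml for 8 h, and the TSZ group also received 50 nM SM-164 together with 20 μM zVAD. Cells given DMSO and cells given TSZ with Nec-1s at 10 μM for the same time, 3 libraries each, are shown beside them. SM-164 mimics Smac and antagonizes the inhibitor of apoptosis (IAP) proteins, zVAD is a pan-caspase inhibitor, and Nec-1s inhibits the RIPK1 kinase. The 2 agents were given together, so their effects cannot be told apart, and cells with only 1 of them were not analysed here. RNA extraction and library kits differ between the labels (RNAiso Plus, NEB Ultra) and the methods of the study (Trizol, VAHTS).

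TNFα binds its receptor TNFR1 and assembles a complex of TRADD, RIPK1, TRAF2 and the cellular IAP proteins, whose ubiquitin chains recruit the kinases TAK1 and IKK. IKK marks the inhibitor IκBα for degradation and so frees NF-κB, which switches on cytokine genes and its own inhibitors, while p38 and JNK act on AP-1 factors. When IAP proteins are antagonized and caspases are blocked, RIPK1 can engage RIPK3 and MLKL, and MLKL then ruptures the plasma membrane in a form of lytic death called necroptosis, for which HT-29 cells are a common model.

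The libraries of both groups held an estimated 9967939 to 11303213 reads, and all 12 held 8781228 to 12730954. In TNFα library c and TSZ library c the deviation from the group's mean level followed the GC content of transcripts across genes, with Spearman's rho of -0.67 and -0.80, and counts are therefore also given without both libraries. The other libraries of these groups followed it the opposite way, with rho of 0.66 in TSZ a, 0.63 in TSZ b, 0.54 in TNFα b and 0.25 in TNFα a. Deviations from a group's own mean cancel out within the group, so opposite signs cannot show which library deviates. Fits without both libraries also rest on fewer samples, and what part that had in lost calls was not tested. In DMSO, which enters the fit and the choice of the TSZ+Nec-1s lists, rho was 0.83 in a, -0.83 in b and 0.59 in c. In TSZ+Nec-1s it lay between -0.17 and 0.29. No DMSO library was left out singly, while the removal of the GC trend given below covered all 12 libraries. The letters a, b and c rank the libraries of a group by size factor and pair none between groups. Whether a group's libraries derive from independent cultures is not stated in the sources used here, and a p-value therefore covers the spread of these samples alone, which may be technical. Of 15 markers of colon epithelium, 9 had a mean of at least 10 in both groups, and CDX1, CDX2, TFF3, CDH17, GPA33 and FABP1 did not. Their sum per library was 21884 to 24145 normalized reads with TNFα and 40332 to 42057 with TSZ, over the 13 markers with a value in every library, and the 7 tested ones all rose. Of 14 leukocyte markers, 8 were at 0 with TNFα and 6 with TSZ, PTPRC, CD3E, CD3D and MS4A1 among them, and the sum of the 14 was 14809.7 to 16009.9 with TNFα and 19934 to 21296 with TSZ, most of it LYZ. CD79A (log2 fold change 4.17), CD68 (1.66) and LYZ (0.40) of that list were higher with TSZ, and CD14 was lower (-1.93). The 13 markers of fibroblasts and endothelium summed to 52.3 to 63.1 normalized reads with TNFα and 229 to 538 with TSZ. COL1A1 (2.75) and COL1A2 (4.28) made up most of that sum with TSZ, and what part other cells had in any result was not tested. In bulk RNA, fewer cells of a type and less RNA per cell cannot be told apart.

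Close to every second gene measured differed between TSZ and TNFα alone, and the largest changes were rises. At an adjusted p under 0.05 from limma, 2732 genes (23.3% of 11727) were higher and 2516 (21.5%) were lower with TSZ than with TNFα, together 5248 (44.8%). Over 2-fold changes were split less evenly, with 1106 genes (9.43%) higher and 665 (5.67%) lower. Over 4-fold, 370 genes (3.16%) were higher and 35 (0.298%) lower, and beyond 8-fold there were 164 rises and 0 falls, 72 of the rises beyond 16-fold and 25 beyond 32-fold. All 3 TSZ libraries lay above all 3 TNFα libraries in 3332 genes (28.4%) and below them in 3128 (26.7%). The median log2 fold change of all tested genes was 0.02, with quartiles at -0.39 and 0.45. Of the members, 217 had a mean under 10 with TNFα and 175 with TSZ, and passed the filter through the other group alone. With a mean of at least 10 in each group, 2580 of 11335 genes were higher and 2426 lower. Lists below hold genes low with TNFα, such as CCL22, DUSP10, SOCS1, GEM and MMP13, so their counts and medians favour rises. Counts of genes within the lists below are to be read beside the shares of all tested genes, 23.3% higher and 21.5% lower. A number in brackets after a gene is its log2 fold change of TSZ over TNFα from the same fit, unless another quantity is named.

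How many genes rose or fell depended on how libraries were scaled to each other. Scaling to total reads, in place of the median ratio used throughout, moved the median of all genes by -0.343 on the log2 scale and gave 1532 genes higher and 4941 lower, so that 23.7% of the calls were rises instead of 52.1%. A rise of under 0.34 on the log2 scale thus turns into a fall. Upper quartile scaling moved the median by -0.104 and gave 2214 higher and 3067 lower (41.9% rises), and removing each library's trend on GC content gave 3128 higher and 3819 lower (45.0% rises). Without TNFα c and TSZ c, 2366 genes were higher and 1820 lower (56.5% rises).

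**Figure D1:**
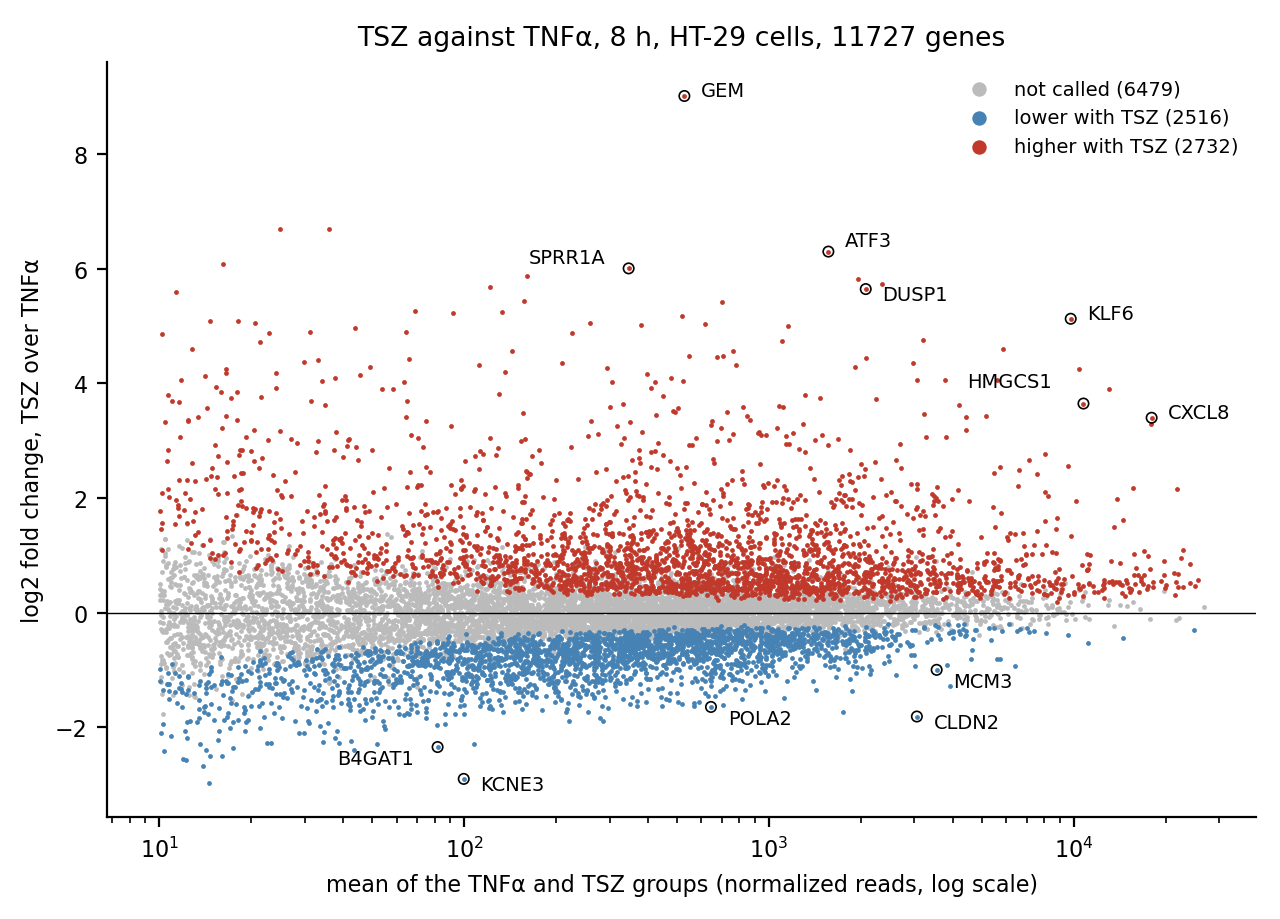
Each point is 1 of 11727 genes, with the mean of the TNFα and TSZ groups in normalized reads on a log scale across and the log2 fold change of TSZ over TNFα up. Red points are the 2732 genes called higher, blue points the 2516 called lower, and 164 of the red points but 0 of the blue ones are beyond 8-fold.

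The most abundant transcripts were called higher far more often than lower. Rises over 4-fold were not especially abundant, with a median level of 310 normalized reads beside 322 over all tested genes. Of the 354 tested genes with a mean of at least 5000 normalized reads, 60.5% were higher and 5.09% lower, with a median log2 fold change of 0.43 (0.08 with total reads), whereas of the 1861 genes between 10 and 50 reads 14.6% were higher and 16.8% lower. The mean is taken over both groups, so a rise with TSZ itself lifts a gene toward the top class. The 18 genes without a value per library were all abundant, among them ACTB, ACTG1, GAPDH, EEF1A1, KRT8 and KRT18. Each had a higher authors' mean with TSZ than with TNFα, by 1.18-fold to 5.81-fold, and together they took 6.94% of the scaled reads with TNFα and 9.23% with TSZ. Reads could not be recovered for 18 genes with TSZ and for 10 with TNFα, so a high level with TSZ itself favoured entry into this set. These ratios rest on the authors' scaling and were not rescaled to total reads. SQSTM1, which encodes the autophagy receptor p62, had the largest ratio, from an authors' mean of 8670.03 with TNFα to 50415.4 with TSZ. The ferritin genes FTH1 and FTL had authors' means of 26505 and 29811 with TNFα and of 82748 and 74638 with TSZ.

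The largest rises were in genes of several kinds, most of them low with TNFα alone. GEM, a GTPase of the RGK family, had 1.0, 1.92 and 1.87 normalized reads with TNFα and 1058, 941 and 1163 with TSZ (log2 fold change 9.01, standard error 0.46, adjusted p = 6.6e-09). ATF3, a stress-induced factor of the ATF family, had 48, 32.7 and 37.4 normalized reads with TNFα and 3317, 3187 and 2775 with TSZ (log2 fold change 6.29, standard error 0.19, adjusted p = 1.0e-10). SPRR1A, a precursor of the cornified envelope of squamous epithelium, had 10.0, 12.5 and 8.41 normalized reads with TNFα and 684, 714 and 649 with TSZ (log2 fold change 6.0, standard error 0.29, adjusted p = 4.5e-09). In each of these genes the TSZ libraries stood far above the TNFα libraries, and the groups did not overlap. CCL22, a chemokine for T cells that carry CCR4, had 9.01, 6.74 and 1.87 normalized reads with TNFα and 340.4, 331 and 273 with TSZ. FOSB, a subunit of AP-1, had 75.1, 52 and 78.5 normalized reads with TNFα and 4649.7, 3819 and 3106 with TSZ. BHLHE40, a basic helix-loop-helix repressor, had 111, 96.2 and 59.8 normalized reads with TNFα and 5207, 4724 and 3907 with TSZ. The TSZ libraries were again all above the TNFα libraries, with log2 fold changes of 5.86, 5.81 and 5.73. The 12 largest rises among genes with a mean of at least 50 also held RBPMS2 (5.68), DUSP1 (5.64), PRDM1 (5.43), PLAU (5.41), RAB3B (5.26) and IL36RN (5.24), the receptor antagonist of IL-36. With Nec-1s added to TSZ, GEM was at 8.24 ± 3.65, ATF3 at 56.6 ± 12.2, FOSB at 61.3 ± 14.6 and BHLHE40 at 174 ± 15.7 normalized reads (SD, n = 3 each). Of the members, 3 had 0 reads with TNFα, and against a floor of 3 reads over the group TSZ was at least 52.1-fold higher for INHBA, a chain of activin, at least 33.5-fold higher for CD69 and at least 23.7-fold higher for LINC00520. No member was at 0 with TSZ.

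The falls were smaller and lay in other kinds of gene. KCNE3, a regulatory subunit of potassium channels in the colon, had 183, 154 and 191 normalized reads with TNFα and 19, 20.3 and 31.1 with TSZ, a log2 fold change of -2.90 (adjusted p = 1.2e-06). B4GAT1, a glucuronyltransferase that acts on dystroglycan, had 137, 132 and 142 normalized reads with TNFα and 27.4, 29.3 and 23.3 with TSZ (-2.34). Every TSZ library lay below every TNFα library in both genes. PRR15L (-2.29), SLITRK6 (-2.30) and SOSTDC1 (-2.02), a secreted BMP and WNT antagonist, followed. E2F2 (-1.98), an activating factor of the cell cycle, the long noncoding RNA HOTTIP (-1.95), ZNF324B (-1.94), TMEM147-AS1 (-1.89), the arginine methyltransferase PRMT6 (-1.89), ZMYM3 (-1.89) and LRRC45 (-1.84) made up the rest of the 12 largest falls at that mean. The counting took no account of strand, so the reads of TMEM147-AS1 and of genes on the other strand cannot be told apart. In DMSO, KCNE3 was at 366 ± 49.4, and TSZ+Nec-1s left it at 134 ± 15.7 (SD, n = 3 each). As a class, 334 zinc finger genes with symbols that begin with ZNF had 11.1% higher and 28.4% lower, beside 23.3% and 21.5% of all tested genes, with a median log2 fold change of -0.30.

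**Figure D2:**
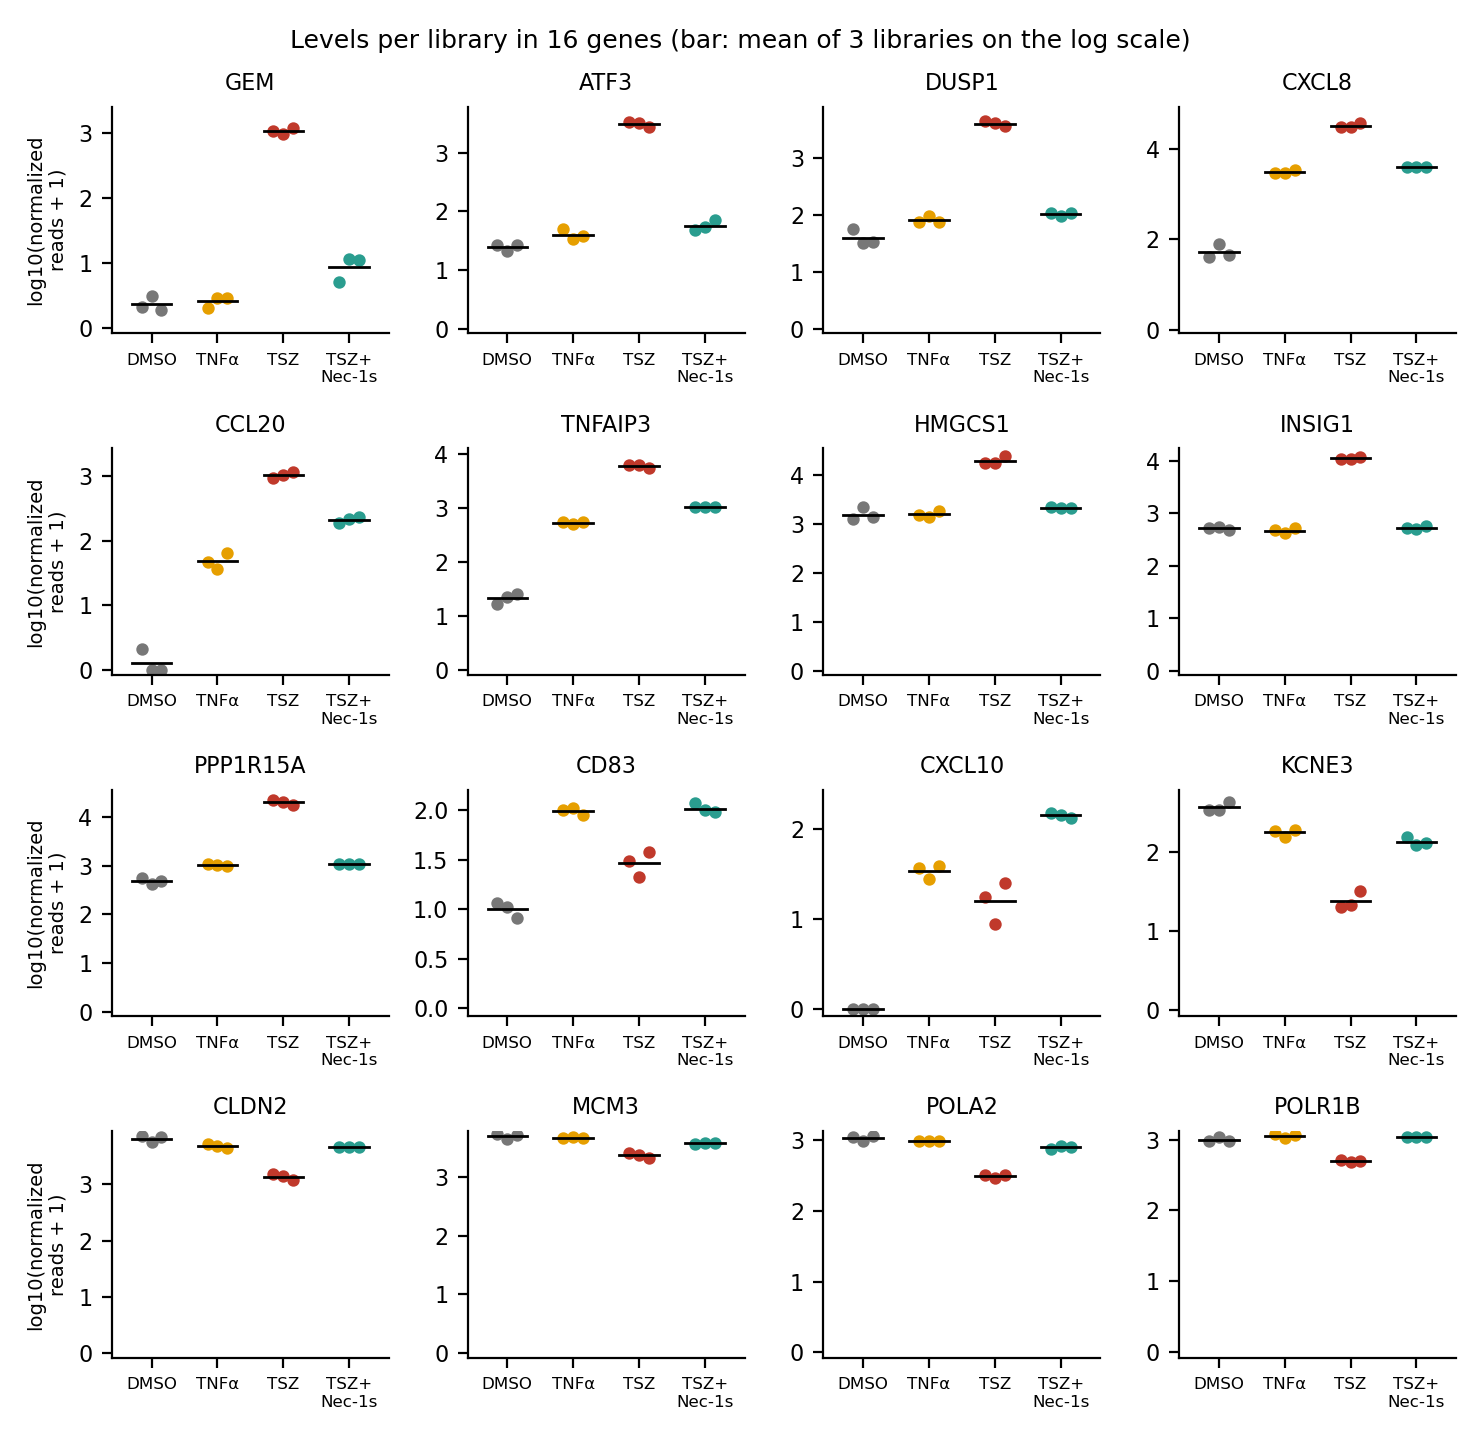
Levels of 16 genes, as log10 of normalized reads plus 1, in each of 3 libraries (points) of the DMSO, TNFα, TSZ and TSZ+Nec-1s groups, with a bar at the mean of the log values. The TSZ points stand above the TNFα points in the first 9 genes, from GEM to PPP1R15A, and below them in the last 7, from CD83 to POLR1B.

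To ask what SM-164 and zVAD did to genes that respond to TNFα when the RIPK1 kinase is blocked, genes were picked from libraries that take no part in the comparison. TSZ+Nec-1s changed 364 genes (3.1%) by over 2-fold upward and 128 (1.09%) downward against DMSO, though SM-164, zVAD and Nec-1s can act on these lists too. Of the 364 raised genes, 274 (75.3%) were higher with TSZ than with TNFα, 17 (4.67%) were lower and 73 were not called, and their median log2 fold change was 1.29. Of the 128 lowered genes, 47 (36.7%) were lower, 14 were higher and 67 were not called, with a median of -0.37. Over all tested genes 23.3% were higher and 21.5% lower. Over the 274 genes the median level was 699.5 normalized reads with TSZ, against 151 with TNFα, 276 with TSZ+Nec-1s and 70.9 in DMSO. The choice of the 274 genes itself favours high levels with TSZ and TSZ+Nec-1s over those with TNFα and in DMSO. Over the 17 genes the median level was 31.1, 98.2, 142 and 36.7 in the same order, though the choice of these genes itself favours low levels with TSZ and in DMSO.

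Genes of this response that were lower with TSZ than with TNFα alone were few. CD83, a surface protein of activated antigen-presenting cells, had 100.1, 105 and 89.7 normalized reads with TNFα and 29.8, 20.3 and 36.6 with TSZ, beside a DMSO level of 9.12 ± 1.77 and a TSZ+Nec-1s level of 104 ± 11.3 (SD, n = 3 each; log2 fold change -1.78, standard error 0.22, adjusted p = 3.2e-05). NOX1, the NADPH oxidase of colon epithelium, had 82.1, 66.4 and 81.3 normalized reads with TNFα and 27.4, 33.9 and 31.1 with TSZ (-1.29). STEAP2, a metalloreductase (-1.28), XKRX (-1.19) and IKBKE, an IKK-related kinase (-0.83), were next in size among those with a mean of at least 50. The TSZ libraries were below the TNFα libraries in all of them. In the other direction, SYNE1, a protein of the nuclear envelope, was lowered by TSZ+Nec-1s against DMSO and had 22, 24.1 and 38.3 normalized reads with TNFα and 224, 176 and 191 with TSZ (2.81). EDN1, which encodes endothelin-1 (1.47), and RAP1GAP, an inhibitor of RAP1 (1.09), rose as well, and AIM1L (0.61) and BCAS1 (0.39) rose less. ADAMTS6 (-1.76) and PPFIBP2 (-1.67) were lowered by TSZ+Nec-1s and lower again with TSZ, as were KCNE3, PRR15L and SOSTDC1.

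**Figure D3:**
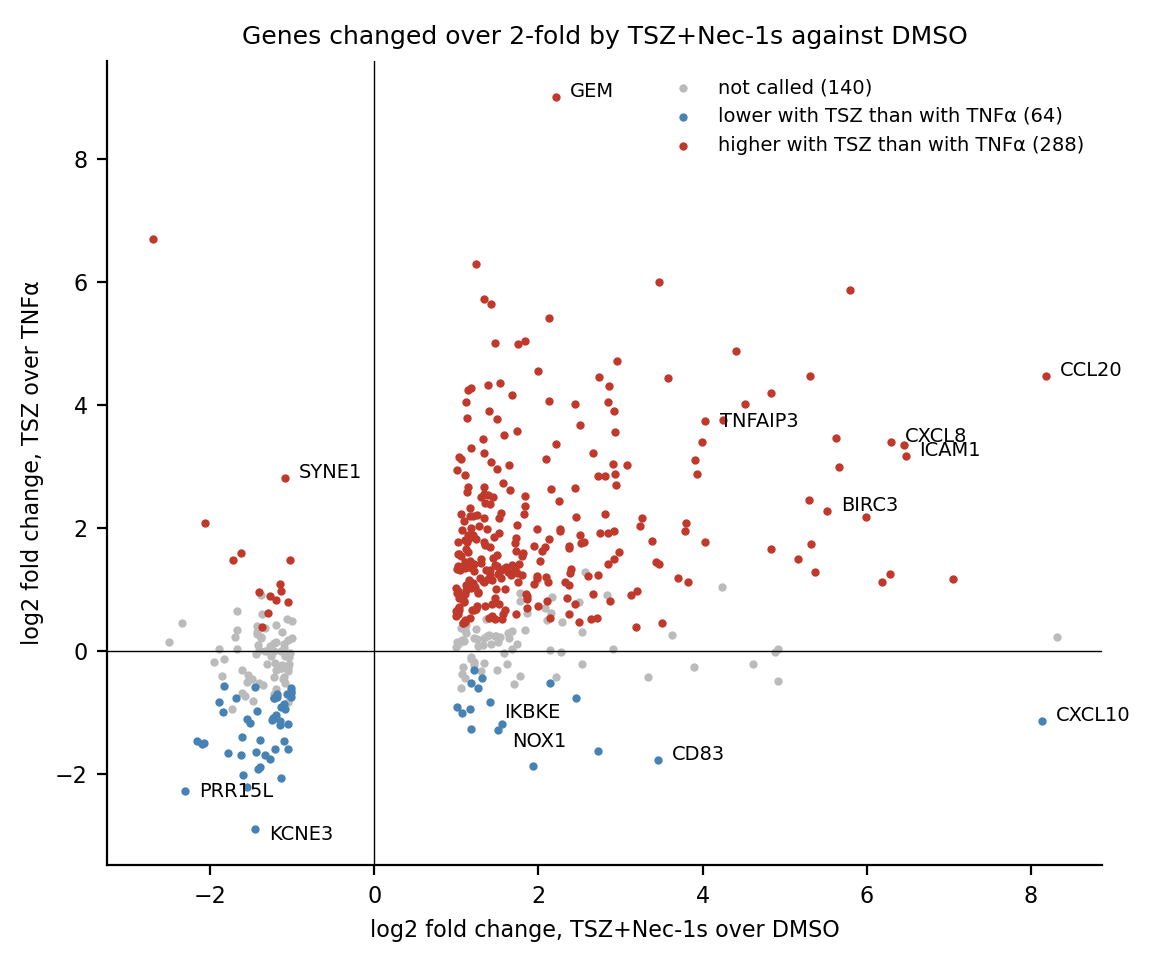
Each point is 1 of the 492 genes changed over 2-fold by TSZ+Nec-1s against DMSO (across, log2 fold change), with the log2 fold change of TSZ over TNFα up. The 288 red points are higher and the 64 blue points lower with TSZ than with TNFα, and CXCL10 and CD83 lie among the lower ones although TSZ+Nec-1s raised them.

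Most genes of NF-κB and its inhibitors were higher with TSZ. Of 16 measured NF-κB subunits, IκB proteins and IKK genes, 11 rose and IKBKE fell, with a median log2 fold change of 0.81 beside 0.02 over all genes. REL had 133, 74.1 and 124 normalized reads with TNFα and 478, 602 and 582 with TSZ, NFKB2 had 1891, 1961 and 1729.5 normalized reads with TNFα and 7834, 7659 and 6140.3 with TSZ, and NFKBIA, which encodes IκBα, had 1417, 1477 and 1393 normalized reads with TNFα and 5898, 5772 and 4870.1 with TSZ. The groups did not overlap in any of them, with log2 fold changes of 2.36, 1.95 and 1.94. RELA (1.44), RELB (1.19) and NFKB1 (0.76) rose less, NFKB1 without a call when the GC trend was removed (0.46). The kinase genes CHUK (0.27), IKBKB (0.0015) and IKBKG (0.06) were not called. BTRC, a ubiquitin ligase subunit that recognizes phosphorylated IκBα, fell from 140.2 ± 8.36 to 88.5 ± 8.61 normalized reads, and its paralog FBXW11 rose from 465 ± 54.5 to 639.7 ± 12.2 (SD, n = 3 each; log2 fold changes -0.66 and 0.47). FBXW11 was not called with total reads (0.12), nor was BTRC without TNFα c and TSZ c (-0.54).

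Around the receptor, adaptors that NF-κB induces rose while RIPK1 and TAB1 fell. Of 28 genes of the TNF receptor complex and its ubiquitin enzymes, 14 rose and 5 fell (median 0.57), and with total reads 12 rose and 8 fell. TRAF1, an adaptor without a RING domain, had 13, 12.5 and 15.9 normalized reads with TNFα and 258, 274 and 245 with TSZ (4.19). TNFAIP3, the deubiquitinase A20, had 555, 497 and 556 normalized reads with TNFα and 6135, 6232 and 5368 with TSZ (3.46). BIRC3, which encodes cIAP2, a protein that SM-164 targets, had 580.5, 568 and 732 normalized reads with TNFα and 2527, 2423 and 4436 with TSZ (2.27). TSZ+Nec-1s gave 3225 ± 107 for BIRC3 and 171 ± 4.49 for TRAF1 (SD, n = 3 each). TNIP1, a partner of A20, rose to 8608 ± 968 (SD, n = 3; 1.27). The 5 falls were TAB1, the activator of TAK1, from 343 ± 51.3 to 129.9 ± 22.2 (SD, n = 3 each; -1.40), RIPK1 (-0.71), TRAF3 (-0.54), OTULIN (-0.48) and RNF31, the catalytic subunit of the linear ubiquitin ligase (-0.46). MAP3K7, which encodes TAK1 (-0.31), and TNFRSF1A, which encodes TNFR1 (0.19, negative with total reads), were not called. MAP3K7 was called lower with total reads (-0.66), upper quartile scaling (-0.42) and the GC trend removed (-0.51), and TNFRSF1A was called higher in the last of these (0.19).

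Secreted signals were among the groups that rose most. Of 17 measured cytokines and leukocyte growth factors, 16 rose and 1 was not called, with a median log2 fold change of 2.38, the highest of the 40 lists other than markers. IL1A, IL1B, IL11 and IL17C had a mean under 10 with TNFα. They passed the filter on the mean through their level with TSZ, so this count, median and rank favour rises. CSF2, which encodes GM-CSF, had 11, 23.1 and 11.2 normalized reads with TNFα and 496, 458 and 353 with TSZ (log2 fold change 4.87, standard error 0.36, adjusted p = 2.8e-07). CSF1, the growth factor of macrophages, had 61.1, 52.9 and 67.3 normalized reads with TNFα and 1497, 1419 and 1155 with TSZ (log2 fold change 4.47, standard error 0.17, adjusted p = 4.4e-10). TNF itself had 62.1, 46.2 and 34.6 normalized reads with TNFα and 508, 479.7 and 430.4 with TSZ (log2 fold change 3.34, standard error 0.21, adjusted p = 5.6e-08), so the mRNA of the ligand that both groups were given was higher with TSZ. LIF (2.94), IL1A (4.72), IL1RN, the antagonist of the IL-1 receptor (3.23), and IL32 (1.18) rose too, and IL18 was not called. IL6, IL10, IL33 and 12 others on the list were under a mean of 10.

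Chemokines parted into a larger group that rose and CXCL10, which fell. Of 13 measured, 8 rose, 1 fell and 4 were not called (median 1.49). CCL22, with a mean of 5.87 with TNFα, passed the filter through its level with TSZ, which favours rises in this count. CCL20, the ligand of CCR6, had 45, 35.6 and 62.6 normalized reads with TNFα and 933, 1043 and 1163 with TSZ (log2 fold change 4.47, standard error 0.21, adjusted p = 3.1e-09). CXCL8, which encodes the neutrophil attractant IL-8, had 2958, 2995 and 3369 normalized reads with TNFα and 29975, 30762 and 37941 with TSZ (log2 fold change 3.40, standard error 0.12, adjusted p = 2.2e-10). CXCL2 had 59.1, 49.1 and 40.2 normalized reads with TNFα and 857, 769.7 and 759.9 with TSZ, a log2 fold change of 4.01. CXCL1, a close relative of CXCL2, had 654, 672 and 571 normalized reads with TNFα and 1786, 1674 and 1857 with TSZ (1.49). TSZ libraries lay above TNFα libraries in all 4 genes. CXCL1, CXCL2 and CXCL3 are close paralogs, and reads they share could be counted to either. CXCL10, an interferon-responsive attractant of T cells, went the other way, with 36, 26.9 and 38.3 normalized reads with TNFα and 16.7, 7.90 and 24.4 with TSZ, beside 149.9, 143 and 132 with TSZ+Nec-1s and 0 in DMSO (log2 fold change -1.14, standard error 0.33, adjusted p = 0.013). Without TSZ b its log2 fold change was -0.70 and was no longer called. Its relative CXCL11 was not called (0.02), nor was CXCL16 (0.14).

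Promoters of these chemokines carry the NF-κB consensus, and the sequences are shown to set the gene that fell beside those that rose. The 300 bases from 250 before to 50 after the start site were taken from RefSeq (GRCh38.p14) for 9361 of the tested genes, and both strands were searched. The consensus was found in 8 of 11 chemokine promoters and in 622 of 9361 (6.64%) of all. CXCL3 was included after its values were seen. Below, capitals mark the consensus on either strand, with overlapping matches run together. The stretches are CXCL1 at chr4:73869298-73869357 on the plus strand, CXCL2 at chr4:74099231-74099290 on the minus strand, CXCL3 at chr4:74038725-74038784 on the minus strand, CCL20 at chr2:227813747-227813806 on the plus strand and CXCL10 at chr4:76023598-76023687 on the minus strand.
CXCL1: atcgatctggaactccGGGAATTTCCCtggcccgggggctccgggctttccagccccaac
CXCL2: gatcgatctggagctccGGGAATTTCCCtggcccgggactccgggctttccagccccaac
CXCL3: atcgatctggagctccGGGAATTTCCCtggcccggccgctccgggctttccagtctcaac
CCL20: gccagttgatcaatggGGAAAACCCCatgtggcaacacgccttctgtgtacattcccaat
CXCL10: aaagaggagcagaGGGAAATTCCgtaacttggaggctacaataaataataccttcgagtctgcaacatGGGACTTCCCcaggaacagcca

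The match began 79 bases before the start site in CXCL1, CXCL3 and CCL20 and 78 bases before it in CXCL2. CXCL10 held 2 matches, beginning 177 and 122 bases before the start, so the gene that fell held the motif as well. Among the TNF receptor complex genes, TNFAIP3 held 2 matches, beginning 67 and 55 bases before its start (chr6:137867179-137867238, plus strand).
TNFAIP3: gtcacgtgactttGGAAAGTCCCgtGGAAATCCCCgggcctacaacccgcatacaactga

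Immediate early genes, which respond to signalling without new protein synthesis, rose almost as a whole. Of 20 measured AP-1, EGR and related genes, 19 rose, with a median log2 fold change of 1.97. JUN had 1836, 1633 and 1450.1 normalized reads with TNFα and 27066, 26738 and 19670.1 with TSZ (log2 fold change 3.89, standard error 0.14, adjusted p = 3.1e-10). FOSL1, a FOS relative, had 1662, 1766 and 1584 normalized reads with TNFα and 10906, 10028 and 8358 with TSZ (2.54), and IER3, an inhibitor of cell death induced by NF-κB, had 2727, 2800.5 and 2509 normalized reads with TNFα and 9343, 9203 and 8139 with TSZ (1.73). The TSZ libraries were above the TNFα libraries throughout. MYC, whose mean went from 5029.6 ± 254 to 5789 ± 658 (SD, n = 3 each), was the 1 that was not called. TSZ+Nec-1s held JUN at 1707 ± 44.4 and FOSL1 at 1940.2 ± 8.40 (SD, n = 3 each).

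Inhibitors that act back on this signalling rose with it. Of 18 MAPK phosphatases and feedback inhibitors, 12 rose and 2 fell (median 1.01). DUSP1, a nuclear phosphatase of p38 and JNK, had 75.1, 95.3 and 73.8 normalized reads with TNFα and 4453, 4109 and 3655 with TSZ (log2 fold change 5.64, standard error 0.16, adjusted p = 7.9e-11). DUSP5, a phosphatase of ERK, had 288, 282 and 258 normalized reads with TNFα and 5962, 5707 and 5358 with TSZ (4.36), and DUSP10 had 5.0, 9.62 and 6.54 normalized reads with TNFα and 150.0, 104 and 106 with TSZ (4.02). ERRFI1, an inhibitor of the EGF receptor (2.13), and DUSP16 (1.99) rose too, while SPRY1 (-0.81) and DUSP14 (-0.45) fell. The kinases themselves were mixed, with 7 of 17 p38, JNK and ERK pathway genes higher and 4 lower, and with 2 higher and 5 lower when scaled to total reads and 2 lower without TNFα c and TSZ c. MAP2K3, which activates p38, rose (1.43), and MAPK14, the p38α gene, fell from 678 ± 84.3 to 543 ± 38.7 (SD, n = 3 each; log2 fold change -0.31, standard error 0.11, adjusted p = 0.035). That call was lost in the fit of the 6 compared libraries alone (-0.31), with no filter on low genes (-0.31), without TNFα a (-0.21), without TSZ a (-0.25) and without TNFα c and TSZ c together (-0.38). Of 15 factors that destabilize cytokine mRNAs, 10 rose and ELAVL1, a stabilizer of AU-rich mRNAs on the same list, fell (-0.56), and with total reads 8 rose and 3 fell. ZFP36, which encodes tristetraprolin, had 899, 874 and 832 normalized reads with TNFα and 10617, 9678 and 7989 with TSZ (3.43), and BTG1 had 189, 198 and 148 normalized reads with TNFα and 2339.7, 2305 and 2719 with TSZ (3.79).

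The AP-1 motif TGANTCA was, of 7 motifs searched, the one whose share differed most between the largest rises and all genes. It lay in 442 of 9361 promoters (4.72%) overall and in 42 of 284 promoters (14.8%) of genes that rose over 4-fold, against 20 of 511 (3.91%) of genes that fell over 2-fold. For the NF-κB consensus the shares were 9.15% and 5.48% in the same classes, and for the cyclic AMP element TGACGTCA they were 4.23% and 2.74%, with 3.42% overall. These shares are descriptions of letters in a window and carry no test. The first 4 stretches below hold the AP-1 motif in capitals and the last 3 hold TGACGTCA, and they show the motifs in a chemokine, envelope, mucin, phosphatase and stress gene that rose. MUC17 and MAFF were picked after their values were seen. They are CXCL8 at chr4:73740414-73740473, SPRR1A at chr1:152983951-152984010, SPRR1B at chr1:153031048-153031107, MUC17 at chr7:101019961-101020020, DUSP1 at chr5:172771286-172771345 on the minus strand, PPP1R15A at chr19:48872336-48872395 and MAFF at chr22:38201909-38201968, all but DUSP1 on the plus strand.
CXCL8: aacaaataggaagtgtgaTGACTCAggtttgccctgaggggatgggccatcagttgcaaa
SPRR1A: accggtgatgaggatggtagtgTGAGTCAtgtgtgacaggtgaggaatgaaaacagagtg
SPRR1B: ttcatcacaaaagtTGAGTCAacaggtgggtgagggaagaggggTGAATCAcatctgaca
MUC17: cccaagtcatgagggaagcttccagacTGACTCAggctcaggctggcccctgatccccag
DUSP1: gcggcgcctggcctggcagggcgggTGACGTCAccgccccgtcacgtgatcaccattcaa
PPP1R15A: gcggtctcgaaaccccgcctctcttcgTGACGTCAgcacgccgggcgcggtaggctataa
MAFF: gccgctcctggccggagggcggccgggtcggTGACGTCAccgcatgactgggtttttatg

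Genes that rose over 4-fold had fewer exons, and a larger share of them held AU-rich elements, which mark short-lived mRNAs. Their longest annotated transcript had a median of 5 exons, against 8 over all tested genes and 6 for falls over 2-fold, and 32.2% of them had at most 3 exons, against 19.9% over all. The heptamer TATTTAT lay in the 3' UTR of 183 of 340 genes (53.8%) that rose over 4-fold, against 4069 of 10985 (37.0%) overall and 194 of 597 (32.5%) for falls over 2-fold. Median 3' UTR lengths were 1478, 1598 and 1547 bases in these classes. TNF held 8 such heptamers, CSF2 held 7 and GEM held 3. Such numbers were not typical, since 3 or more lay in 15% of the genes that rose over 4-fold and in 7.68% of all tested genes. Among other large rises, BHLHE40, CCL22, BBC3 and CDKN1A held 0, and ATF3 and CCL20 held 1 each.

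**Figure D4:**
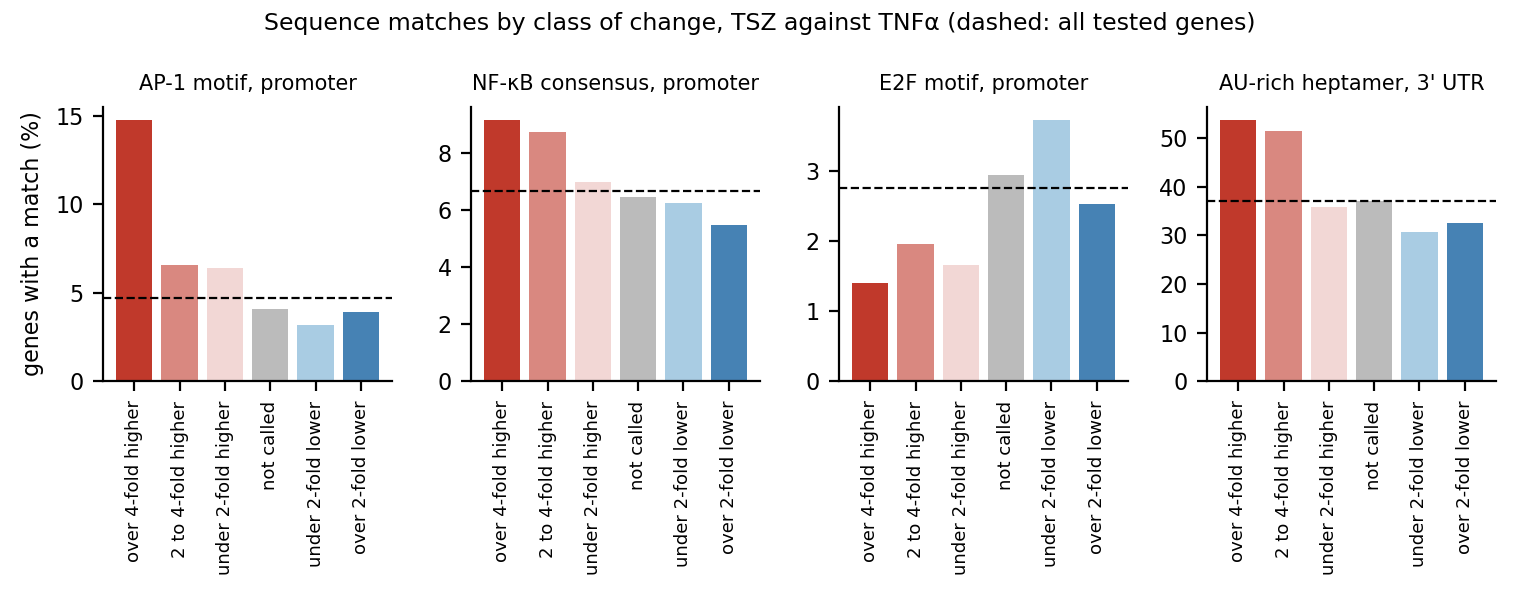
Share of genes (%) whose promoter holds the AP-1, NF-κB or E2F motif, or whose 3' UTR holds the heptamer, in 6 classes of change, with the share over all tested genes as a dashed line. The AP-1 bar is at 14.8% for rises over 4-fold and 3.91% for falls over 2-fold, and the heptamer bar at 53.8% and 32.5%.

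Genes of the death machinery moved in both directions, as did all tested genes, of which 23.3% were higher and 21.5% lower. Of 19 measured necroptosis and death receptor genes, 6 rose and 5 fell, with a median of 0.11 that became -0.23 with total reads and -0.06 with the GC trend removed. RIPK3 had 107, 93.3 and 83.2 normalized reads with TNFα and 238, 205 and 202 with TSZ (log2 fold change 1.19, standard error 0.15, adjusted p = 4.6e-05), whereas RIPK1 had 589, 589.9 and 537 normalized reads with TNFα and 396, 361 and 296 with TSZ (log2 fold change -0.71, standard error 0.12, adjusted p = 3.2e-04) and MLKL had 425, 432 and 411 normalized reads with TNFα and 340.4, 293 and 285 with TSZ (log2 fold change -0.47, standard error 0.13, adjusted p = 0.0093). RIPK3 thus stood above its TNFα libraries while RIPK1 and MLKL stood below theirs. FAS (2.23), TNFRSF10B (1.49), TICAM1 (1.44) and CFLAR, the caspase-8 inhibitor cFLIP (1.38), rose, and FADD (-0.63), CASP6 (-1.0) and CASP8 (-0.44) fell. Without TNFα c and TSZ c, 3 of the list fell. Of 12 BCL2 family genes, 5 rose and 7 were not called, but 5 fell with total reads. BBC3, which encodes the killer protein PUMA, had 64.1, 77 and 68.2 normalized reads with TNFα and 2398, 2414 and 1907 with TSZ (log2 fold change 4.99, standard error 0.18, adjusted p = 2.8e-10). MCL1, a survival protein, had 3059.6, 2827 and 3157 normalized reads with TNFα and 11720.1, 12204 and 15190.5 with TSZ (2.10), and PMAIP1 (2.84) and BMF (2.45) rose too. BAX (-0.04) and BCL2L1 (-0.06) were not called. A list of 16 membrane repair genes held ESCRT-III subunits and also TSG101, PDCD6IP, VPS4A and VPS4B, which are not subunits of it. Of the 16, 8 rose and 1 fell (4 and 3 with total reads, 5 and 0 without TNFα c and TSZ c). CHMP1B (1.56) and CHMP2B (1.37) led the rises, which included PDCD6IP (0.35) and TSG101 (0.33), and CHMP6 fell (-0.54). The CHMP2B call was lost without TNFα b or TSZ c, at the lowest with 0.98, and that of CHMP6 without any 1 of the TNFα a, TNFα b and TSZ libraries.

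Interferon-stimulated genes showed no common direction, beside shares of 23.3% higher and 21.5% lower over all tested genes. Of 27, 11 rose and 4 fell (median 0.34), and 6 rose and 6 fell with total reads, while 2 fell without TNFα c and TSZ c. ISG20, an exonuclease, had 76.1, 55.8 and 53.3 normalized reads with TNFα and 909, 816 and 789 with TSZ (3.77), and OASL rose to 651 ± 74.7 (SD, n = 3; 2.62). The falls were OAS2 (-1.39), PARP9 (-1.16), IFIT5 (-0.85) and OAS3, from 1829 ± 179 to 1272 ± 139 (SD, n = 3 each; -0.53). Among 20 SOCS, STAT and IRF genes, 11 rose and CISH fell (-2.02), whereas 8 rose and 6 fell with total reads. SOCS1 had 2.0, 1.92 and 0.934 normalized reads with TNFα and 54.7, 76.7 and 51 with TSZ (4.90), SOCS3 had 5.0, 15.4 and 13.1 normalized reads with TNFα and 225, 220.1 and 192 with TSZ (4.32), and IRF7 (1.97) and IRF1 (1.38) rose as well. Of 16 genes of MHC class I presentation, 9 rose and 7 were not called, though with total reads 4 rose and 5 fell, and HLA-E rose most (2.0).

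Surface and matrix genes through which a cell meets leukocytes and tissue rose. Of 13 adhesion and matrix genes, 11 rose and 1 fell (median 2.10). MMP13, with 2 reads over the TNFα group and 65 over the TSZ group, passed the filter through TSZ, so this count and median favour rises. PLAU, the urokinase, had 41, 31.8 and 24.3 normalized reads with TNFα and 1458, 1433 and 1209 with TSZ (log2 fold change 5.41, standard error 0.23, adjusted p = 1.2e-09). ICAM1, a ligand of leukocyte integrins, had 909.8, 917 and 804 normalized reads with TNFα and 8758, 8129 and 6972 with TSZ (3.18). MMP15 fell (-1.10). Of 4 EGF receptor ligands HBEGF (3.12), AREG (1.85) and EREG (1.84) rose, and TGFA did not pass (0.09, negative with total reads). PTGS2, the inducible cyclooxygenase, had 181, 162 and 207 normalized reads with TNFα and 3664, 3773 and 4512 with TSZ (log2 fold change 4.44, standard error 0.18, adjusted p = 9.7e-10), and PTGES (2.15) and HPGD (1.57) rose with it, among 8 prostaglandin genes of which 4 rose and 4 were not called. The laminin chain gene LAMB3 (2.21) rose among 26 claudin, junction and integrin genes, of which 19 rose and 2 fell (10 and 2 with total reads). CLDN2, a pore-forming claudin, fell from 5151, 4698 and 4411 with TNFα to 1488, 1388 and 1198 with TSZ (log2 fold change -1.81, standard error 0.11, adjusted p = 5.2e-08).

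Enzymes of cholesterol synthesis were higher with TSZ. Of 21 measured, 17 rose and 4 were not called, with a median log2 fold change of 1.11, and with total reads 17 rose and 2 fell. HMGCS1, which makes HMG-CoA, had 1507, 1420.5 and 1806 normalized reads with TNFα and 17679, 17289 and 24836 with TSZ (log2 fold change 3.65, standard error 0.19, adjusted p = 8.1e-09). SQLE, the squalene epoxidase, had 5735, 5462 and 5716 normalized reads with TNFα and 21053, 22099.5 and 23290.0 with TSZ (1.97). INSIG1, a sterol sensor that retains the SREBP factors, had 471, 412 and 519 normalized reads with TNFα and 10969, 10987 and 11744 with TSZ (log2 fold change 4.59, standard error 0.10, adjusted p = 6.9e-12). DMSO levels were 1615 ± 523 for HMGCS1 and 519 ± 36.7 for INSIG1, and TSZ+Nec-1s levels were 2166 ± 92.1 and 530.2 ± 27.8 (SD, n = 3 each). ACSS2 (2.74) rose too, and FASN, the fatty acid synthase, rose to 21142 ± 3068 (SD, n = 3; 1.03), while ACACA fell (-0.34), so that 11 of 19 genes of sterol uptake and fatty acid synthesis rose and 1 fell (9 and 4 with total reads). The list of LXR receptors and their targets had 6 measured genes, of which APOE, a carrier of cholesterol (2.09), and NR1H2, which encodes LXRβ (0.88), rose and NR1H3, which encodes LXRα, fell (-0.72), and with total reads 2 rose and 3 fell.

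Stress programmes rose in part. Of 24 ATF4-CHOP genes, which respond when eIF2α is phosphorylated, 18 rose and 1 fell (median 0.81), and with total reads 15 rose and 5 fell (median 0.46). PPP1R15A, the phosphatase subunit GADD34, had 1084, 1033 and 993 normalized reads with TNFα and 22081, 20095 and 17031 with TSZ (log2 fold change 4.24, standard error 0.11, adjusted p = 3.2e-11). DDIT4, an inhibitor of mTORC1, had 199, 182 and 177 normalized reads with TNFα and 3646, 4003 and 3245 with TSZ (4.28), and ATF4 had 4691, 5054 and 4246 normalized reads with TNFα and 13424, 13033 and 11922 with TSZ (1.46). PSPH fell (-0.62). Chaperones of the endoplasmic reticulum moved less, with 7 of 20 higher and 13 not called (5 higher and 9 lower with total reads). DNAJB9 (2.3) and HERPUD1 (1.89) led them, and HSPA5, the chaperone BiP, was at 10573 ± 516 and 13511 ± 553 (SD, n = 3 each; 0.35), a rise no longer called with total reads (0.01). Of 14 heat shock genes 8 rose and HSPA9 fell (-0.21), and with total reads 4 rose and 2 fell. HSPA1A (1.53) and HSPA1B (1.42) are near-identical, and reads they share could be counted to either. Of 17 NRF2 targets, metallothioneins and iron genes, 14 rose and 3 were not called (median 1.02), with SOD2 (4.06), HMOX1 (3.27) and TXNRD1, from 7992 ± 225 to 35448 ± 1106 (SD, n = 3 each; 2.15). Of 23 autophagy and lysosome genes 15 rose (8 with total reads, with 2 lower), led by GABARAPL1 (3.09).

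All but KLF15 of 12 Krüppel-like factors rose (median 1.39), and with total reads 8 rose and 1 fell. KLF6 had 558, 542 and 533 normalized reads with TNFα and 18986, 19726 and 18272 with TSZ (log2 fold change 5.12, standard error 0.10, adjusted p = 6.9e-12). Of 21 SRF targets and small GTPases 20 rose, 18 with total reads, with RND1 at 577 ± 26.9 (SD, n = 3; 4.01) and the filamin gene FLNA at 30973 ± 4987 (SD, n = 3; 0.84). Keratin, envelope and mucin genes had 15 of 18 higher and 3 not called (median 1.41), and with total reads 13 were higher and 2 lower. KRT17, a keratin of stressed epithelium, had 367, 466 and 284 normalized reads with TNFα and 3237, 3069.8 and 2668 with TSZ (3.03), and KRT20, a keratin of differentiated colonocytes, had 2375, 2373 and 2368 normalized reads with TNFα and 8224, 8517 and 8738 with TSZ (1.84). GDF15, a stress cytokine of the TGFβ family, had 678, 664 and 561 normalized reads with TNFα and 11819, 11041 and 8862 with TSZ (4.05), SMAD3 rose to 10272 ± 722 (SD, n = 3; 1.19), and SMAD1 (-1.18), TGFB2 (-0.68) and TGFBR2 (-0.53) fell, among 21 ID, SMAD, BMP and activin genes of which 11 rose and 4 fell (8 fell with total reads, 6 with upper quartile scaling, 8 with the GC trend removed and 2 without TNFα c and TSZ c). Intestinal factors had 6 of 15 higher, ELF3 (1.88), SOX9 (1.37) and GATA6 (1.21) in front, and 1 lower, and with total reads 5 were higher and 5 lower, with the GC trend removed 8 and 4. WNT targets were split, with 6 of 17 higher and 5 lower, beside 23.3% and 21.5% of all tested genes. With the GC trend removed 8 were lower, and without TNFα c and TSZ c 2 were. Among the falls were AXIN2, from 858 ± 41 to 377 ± 34.6 (SD, n = 3 each; -1.19), and SP5 (-1.57).

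DNA replication was the list with the largest share of falls. Of 37 DNA replication genes, 30 fell and 7 were not called (median -0.69). POLA2, a subunit of the polymerase that primes replication, had 979.8, 975 and 978 normalized reads with TNFα and 318, 293 and 327 with TSZ (log2 fold change -1.64, standard error 0.10, adjusted p = 5.0e-08). MCM3, a subunit of the replicative helicase, had 4747, 4819 and 4605 normalized reads with TNFα and 2541, 2433 and 2146 with TSZ (log2 fold change -1.0, standard error 0.09, adjusted p = 2.7e-06), and MCM2 (-0.92), MCM10 (-1.52) and GINS3 (-1.60) fell too. TSZ libraries lay below TNFα libraries in each of them, while TSZ+Nec-1s had 792 ± 32.8 for POLA2 and 3837 ± 83.2 for MCM3 (SD, n = 3 each). Without TNFα c and TSZ c, 25 of the 37 fell. The E2F motif TTTCCCGC, in capitals below, lay in 9 of 31 promoters of this list (29.0%) and in 259 of 9361 (2.77%) of all, but in 13 of 511 (2.54%) of genes that fell over 2-fold. It is shown for GINS3 at chr16:58392451-58392510 (plus strand) and MCM3 at chr6:52284873-52284932 (minus strand), which fell, and for MCM7 at chr7:100101538-100101597 (minus strand), which was not called (-0.10) but was called lower with total reads (-0.44) and with the GC trend removed (-0.14).
GINS3: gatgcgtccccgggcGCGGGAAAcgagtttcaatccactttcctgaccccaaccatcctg
MCM3: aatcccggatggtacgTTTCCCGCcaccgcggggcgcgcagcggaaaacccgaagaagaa
MCM7: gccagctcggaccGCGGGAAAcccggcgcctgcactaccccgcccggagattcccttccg

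Of 32 mitosis and spindle genes 19 fell and 13 were not called (median -0.51), with KIF20A (-1.60), KIF2C (-1.04), AURKA (-0.94) and MKI67, from 8395 ± 656 to 4421 ± 306 (SD, n = 3 each; -0.92). On the other side CDKN1A, which encodes the inhibitor p21, had 433, 427 and 417 normalized reads with TNFα and 7809, 7596 and 5955 with TSZ (log2 fold change 4.05, standard error 0.12, adjusted p = 1.0e-10), and GADD45A (3.10) and GADD45B (3.35) rose, among 24 cyclin, CDK inhibitor and growth arrest genes of which 12 rose and 4 fell (8 fell with total reads, 6 with the GC trend removed and 2 without TNFα c and TSZ c). CCND1 (-0.51) and CCNE2 (-1.54) fell, the latter not called without TNFα a, TNFα c, TSZ a or TSZ b, with values between -1.53 and -1.35.

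Genes that build ribosomes and genes that make up ribosomes went opposite ways. Of 34 ribosome biogenesis genes 19 fell and 1, GNL2, rose (0.26, negative with total reads), with a median of -0.39. POLR1B, a subunit of RNA polymerase I, had 1178, 1052 and 1166 normalized reads with TNFα and 515, 481 and 496 with TSZ (log2 fold change -1.18, standard error 0.10, adjusted p = 6.2e-07), and POLR1A (-1.12) and NAT10 (-0.88) fell too. Of 47 ribosomal protein genes 44 rose and 3 were not called, but by a median of 0.52 that shrank to 0.18 with total reads, where 8 rose and 1 fell. RPS9 had the largest of these rises, at 7785, 9459 and 7461 normalized reads with TNFα and 15279.7, 14929 and 11806 with TSZ (0.76). Respiratory chain subunits had 13 of 32 higher and 19 not called (median 0.25), which turned to 2 higher and 8 lower (-0.09) with total reads, so no direction can be given for them. Glycolysis and hypoxia genes had 13 of 25 higher and 12 not called (7 higher and 4 lower with total reads). NDRG1 (4.73), ADM (2.61) and SLC2A1, the glucose transporter GLUT1, at 7261, 7323 and 6651 normalized reads with TNFα and 21354, 21409 and 17119.7 with TSZ (1.49), stood out from the small changes of the enzymes, of which LDHA had 0.25 (negative with total reads). Housekeeping genes were no neutral set, with 6 of 13 higher and 3 lower (3 and 4 with total reads, 1 lower without TNFα c and TSZ c), TBP (-0.79) among the latter. HMGB1, a nuclear protein released by dying cells, was at 4115, 4997 and 6144 normalized reads with TNFα and 5996, 5408 and 8326 with TSZ, and its groups overlapped (log2 fold change 0.36, standard error 0.20, adjusted p = 0.16). HMGN1 had a log2 fold change of 0.32 (adjusted p = 0.0098), which is negative with total reads.

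**Figure D5:**
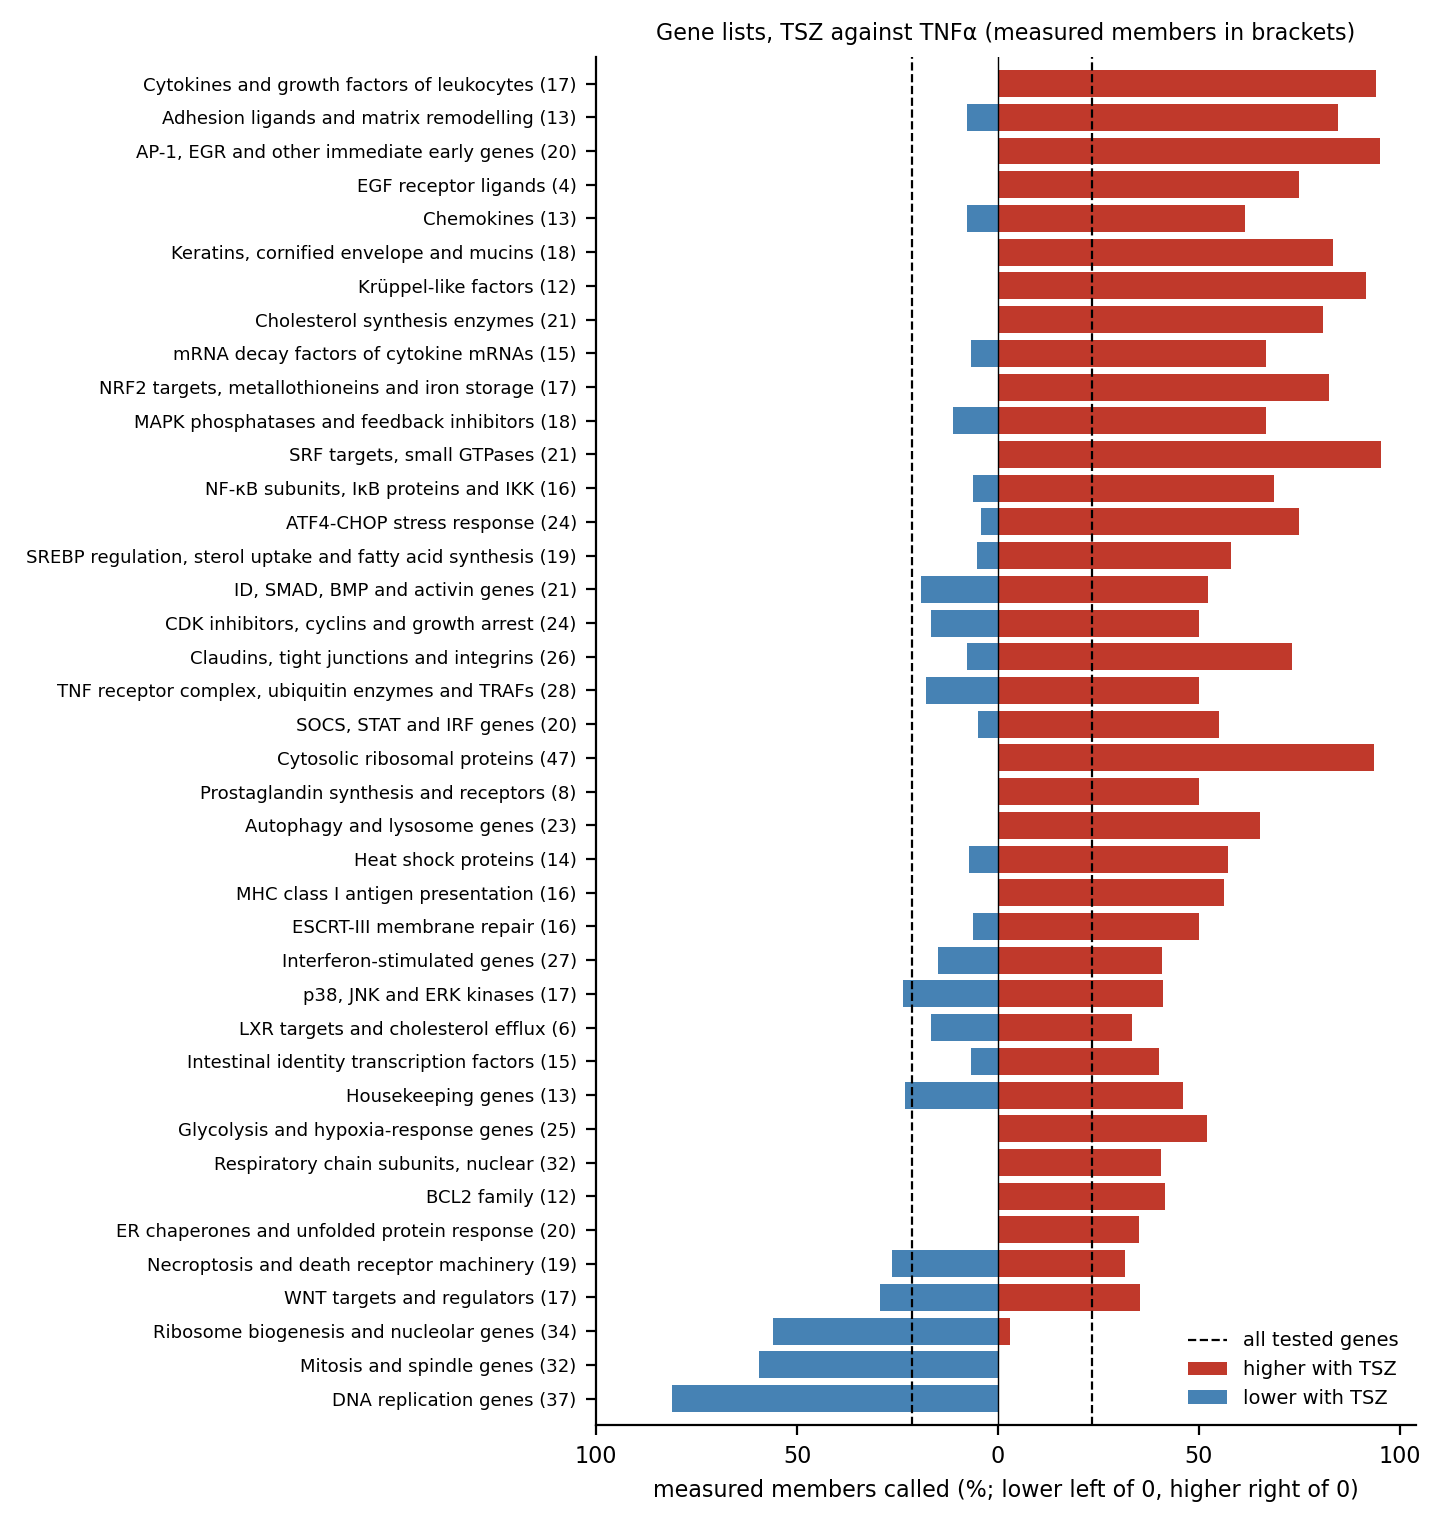
Share of the measured members of 40 gene lists (number in brackets) that were higher (red, right) or lower (blue, left) with TSZ than with TNFα, ordered by the median log2 fold change, with the shares over all tested genes, 23.3% and 21.5%, as dashed lines. Cytokines are at the top with 16 of 17 higher, and DNA replication genes at the bottom with 30 of 37 lower.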

How the data were processed

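Per the methods of the study, STAR mapping to hg38, HTSeq counting per gene without regard to strand and DESeq scaling were run by the authors. The 6 deposited tables give, for 26485 genes, the signal of each of 4 groups, that is the authors' mean over 3 libraries of reads divided by a size factor. The fold changes, p-values and adjusted p-values of the authors' own comparisons, also in these tables, were not used.

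A group mean is a sum of whole reads of 3 libraries, each with its own weight. The weights were found from low genes and the reads of each library from the means, for 15654 of 15664 genes with reads in TNFα and 15780 of 15798 in TSZ. On simulated means, 15213 of 15213 and 15206 of 15206 genes came back with their true reads. These were fewer genes than had reads in the data, and none failed, whereas 18 abundant genes failed in the data. The simulation therefore does not vouch for the reads of the most abundant genes. Recomputed size factors differed by at most 0.065%. Columns were not linked to replicate numbers.

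Log2 of the recovered reads was fitted with limma 3.58.1 (voom weights, 0.5 reads added, all 12 libraries, median-ratio size factors) in R 4.3.3, for 11727 genes with a mean of at least 10. Calls are Benjamini-Hochberg adjusted p under 0.05, two-sided, over all 11727. Fold changes on this scale understate the change of low genes. In simulated libraries of 11727 genes, 67, 67 and 66 genes were changed 1.5-, 2- and 4-fold. Of these 25.4%, 89.6% and 100% were called, with 10 false calls. Rises and falls were balanced there, and all genes had the same setting for the spread between libraries. No GC trend or scaling error was simulated, so the false calls do not cover errors from either. Depths of 9967939 to 11303213 reads set the counting error, and the bounds for genes at 0 cover counting error only.

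The comparison, its members and the 43 gene lists (3 of them cell type markers) were chosen with earlier results of these data known. Named genes are the 12 largest rises and falls at a mean of at least 50, the 4 most abundant and up to 3 largest rises and falls of each list, genes the study names, members of counts of 5 or fewer, and the 5 largest rises and falls within the TSZ+Nec-1s lists. TNF receptor, chemokine, death and other lists each have their counts in the text. Gene models came from GENCODE on hg38 (10837 genes matched by symbol, 616 by an older symbol, 274 not) and promoters from RefSeq. Alternatives were other scalings, filters, pseudocounts, fits and left-out libraries. Leaving out TNFα c and TSZ c together was chosen after seeing the data. Some genes that the rule names are not reported here.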

Additional observations from a re-analysis of the deposited data

How the results depend on the processing

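No paired analysis was possible because the libraries recovered from group means carry no replicate numbers. Calls of named genes that changed are given here or beside the gene. Scaled to total reads, 1532 genes were higher and 4941 lower, 222 members of the gene lists were lower instead of 117, and of the genes that TSZ+Nec-1s changed the raised list (328 genes instead of 364) had 31 lower and the lowered list (161 instead of 128) 9 higher and 84 lower. The log2 fold changes of GNL2 (-0.0827), HMGN1 (-0.0228), LDHA (-0.0935) and TGFA (-0.253) turned negative with it. Removing the GC trend gave 3819 lower genes and 22 higher ones in the lowered list of 166. Requiring over 2-fold left 1106 higher and 665 lower. With a mean of at least 50, the raised list of 294 had 11 lower, and the lowered list of 49 had 5 higher and 26 lower. Adding 5 reads left 7 higher in the lowered list of 93. With lists cut at over 4-fold, the raised list of 132 had 104 higher and 5 lower and the lowered list of 8 had 2 and 4. Leaving out 1 library at a time gave 2288 to 2706 genes higher and 2085 to 2235 lower, 395 to 432 list members higher (437 with all libraries) and 100 to 109 lower, 251 to 267 higher and 14 to 18 lower in the raised list, and 8 to 14 higher and 39 to 45 lower in the lowered list, the 8 without TSZ b. Of 11727 genes, low ones were limited by depth, since a gene at 0 reads over a group can hold up to 3. The cause of these shifts was not tested.

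Without TNFα c and TSZ c together, 17 named genes lost their call, namely MLKL (-0.44), CASP8 (-0.41), BTRC (-0.54), RNF31 (-0.39), SP5 (-1.08), ACACA, AIM1L, CCNE2, CHMP2B, CHMP6, GNL2, HMGN1, HSPA9, IFIT5, MAPK14, OAS2 and TGFB2. With total reads AIM1L (0.26), BCAS1 (0.05), CHMP2B (1.02), FBXW11 (0.12), HSPA5 (0.01) and LYZ (0.06) lost theirs, and BAX (-0.38), BCL2L1 (-0.40), KLF15 (-0.85), MAP3K7 (-0.66), MCM7 (-0.44) and TRAF2 (-0.44) were called lower. With upper quartile scaling BCAS1 (0.29), GNL2 (0.16), HMGN1 (0.22) and LDHA (0.15) were not called. With the GC trend removed GNL2 (0.23), HMGN1 (0.12), LDHA (0.17), LYZ (0.31) and NFKB1 (0.46) were not called, TRAF2 (-0.20) was called lower and MYC (0.21) higher. CHMP6, GNL2, HSPA9 and MAPK14 lost their calls in the fit of 6 libraries, and CHMP6, HSPA9 and MAPK14 without a filter. Leaving out 1 library at a time took the call from ACACA (without TNFα a, -0.26), AIM1L (without TNFα a, 0.54, or TSZ b, 0.54), DUSP14 (without TNFα b, -0.39, or TSZ c, -0.30), OAS2 (without TNFα c, -1.07, or TSZ b, -1.21), IFIT5 (without TNFα c, TSZ a or TSZ b, -0.79 to -0.63), TGFB2 (without TNFα a, TNFα c or TSZ a, -0.66 to -0.53), BCAS1 (without TNFα b, TNFα c, TSZ a or TSZ b, 0.31 to 0.38), GNL2 (without TNFα a, TNFα c, TSZ a or TSZ c, 0.21 to 0.26) and HSPA9 (without any TNFα library, TSZ a or TSZ b, -0.23 to -0.16). MYC was called higher without TSZ c (0.29) and TRADD without TNFα b (0.49).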
